A study of Mus musculus with 9 samples.

Results

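The cells were B16.SIY, melanoma cells from C57BL/6 mice in which SIY, a peptide used as a model antigen, is expressed as a fusion with dsRED, a red fluorescent protein. Puromycin selection after lentiviral infection gave stable lines, each expressing a short hairpin RNA (shRNA), and each line was represented by 3 libraries whose titles end in the digit 0, 1 or 2. The comparison described here sets the 3 libraries numbered 0 against the 6 numbered 1 or 2, out of 9 libraries in all. Each hairpin group gave 1 library to the first set and 2 to the second: a control shRNA line, a line with Decr2 shRNA1 and a line with Decr2 shRNA2, in which the hairpins target Decr2, a 2,4-dienoyl-CoA reductase of peroxisomes. All 9 libraries therefore came from infected, selected cells grown in the same medium, and no uninfected line was analysed here.

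The digit is the whole of the label. The titles do not say what it stands for, whether a separate culture, a day of harvest or a preparation of RNA, and p-values below describe only how far the libraries spread, which could reflect technical variation. Each hairpin was represented by 1 stable line, so hairpin and line cannot be told apart. The values are the authors' log2 expression values, 1 per gene and library for 10762 genes. They are not scaled by transcript length, so levels are compared between libraries and never between genes. A difference is the mean of the libraries numbered 0 minus that of the libraries numbered 1 or 2, on the log2 scale, with a term for hairpin group. A gene was called higher or lower at an adjusted p under 0.05 (limma, Benjamini-Hochberg over all genes).

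The genes that differed belong in part to the best known programs of the melanocyte lineage. Pigment cells make melanin inside melanosomes, organelles related to lysosomes, under the transcription factor MITF, while the related factor TFEB drives lysosomal genes, and both bind short E-box sequences in promoters. The integrated stress response is a separate program: when amino acids run short or another stress acts, the transcription factor ATF4 raises genes for amino acid synthesis and uptake. The coactivator YAP, with its partner TEAD, and the factor SRF respond to cell shape, density and the state of the actin skeleton.

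The label of a melanoma line fitted the markers, as all 7 melanoma markers were in the table. Of these, 6 were higher in the libraries numbered 0, against 15.2% of all genes, which does not bear on the label. The same 7 genes are counted again in the pigment lists below. Of 39 markers of stroma, endothelium, blood and epithelium, 5 were in the table, and none of the B cell, myeloid, epithelial or red cell markers was. The stromal collagen Col1a1 (difference 1.23, adjusted p = 0.0243) and Postn (0.68, adjusted p = 0.0178) were higher and Pdgfrb was lower (-0.38, adjusted p = 0.0407), while Plvap (-0.45) and Lck (-0.41) did not pass. On the linear scale these 5 markers summed to 38.7 in the control library numbered 0 against 28.9 and 25.8 in libraries 1 and 2. The sums were 30.8 against 32.1 and 33.4 with shRNA1, and 30.2 against 30.3 and 27.2 with shRNA2. Only in the control line was library 0 above both others. The part of these markers in the differences below was not tested. Without the control library numbered 0, Col1a1 differed by 0.66 (adjusted p = 0.0937) and Postn by 0.48 (0.0768), without the shRNA2 library numbered 0 neither passed (0.0509 and 0.0727), and Pdgfrb passed in only 2 of 9 fits with 1 library left out. As in any bulk sample, fewer cells of a kind and less RNA per cell cannot be told apart. Decr2 itself read 3.71 to 4.10 in the control line, 2.51 to 3.18 with shRNA1 and 0.84 to 1.55 with shRNA2. The 3 ranges did not overlap, and Decr2 did not differ by digit (-0.15, SE 0.19, adjusted p = 0.577).

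In each line the libraries numbered 1 and 2 were close to each other and the library numbered 0 stood apart. Across genes, libraries 1 and 2 of the same line correlated at 0.992 to 0.994, and library 0 correlated with those of its own line at 0.966 to 0.986. Libraries numbered 0 of different lines correlated at 0.971 to 0.984. The median gene differed between libraries 1 and 2 by 0.0744 in the control line, 0.0873 with shRNA1 and 0.102 with shRNA2, and between library 0 and the mean of the others by 0.138, 0.260 and 0.169. Of all the variation between libraries, 46.4% lay between hairpin groups, 28.5% between the digit 0 and the other digits, 14.3% in how that difference varied between lines, and 10.8% between libraries 1 and 2.

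**Figure D1:**
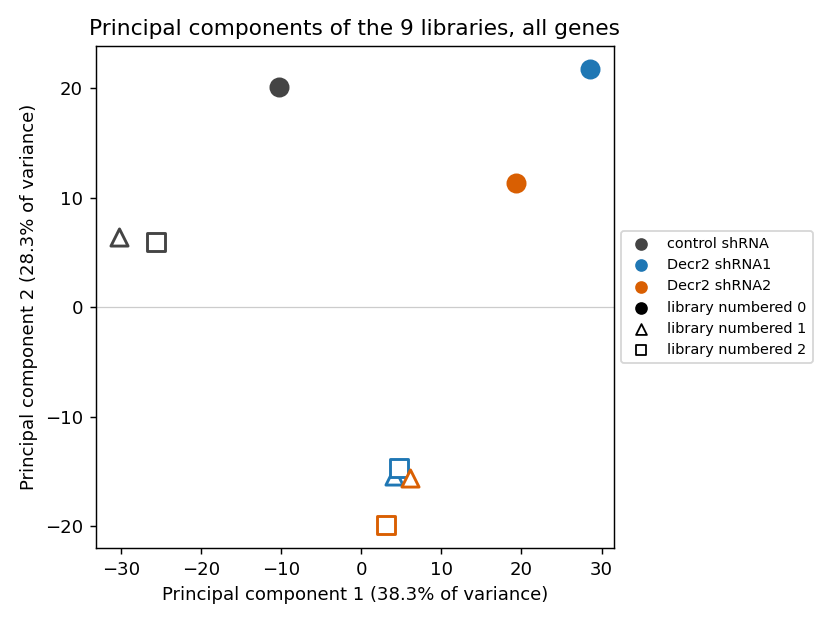
Principal components 1 (38.3% of the variance) and 2 (28.3%) of the 9 libraries over all genes. Colour gives the line, filled circles are libraries numbered 0, and open triangles and squares are libraries 1 and 2. In each line the filled circle lies higher on component 2 and further right on component 1 than the open symbols, which lie close together.

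In the comparison of digits, 1640 of the 10762 genes were higher (15.2%) and 1599 were lower (14.9%) in the libraries numbered 0, together 30.1%. Most of these differences were small, with a median size of 0.35, and 81 genes were higher and 55 lower by at least 1, which together are 1.26% of the genes. In 19.6% of the genes the library numbered 0 lay above both other libraries in every line, and in 19.4% it lay below both in every line. A limma fit with a term for each digit called 0 genes between the digits 1 and 2, and no other setting tried called any. In that fit 92 genes (0.855%) had an unadjusted p under 0.05. Its spread also took in how library 0 varied between lines, which makes calls harder. A fit without the 3 libraries numbered 0, where this cannot act, also called 0 genes higher and 0 lower. It held only the 6 other libraries, so the 0 calls do not measure how alike libraries 1 and 2 were. Since libraries 1 and 2 of a line were so alike, they were also averaged before the test, 3 values against 3, an alternative chosen after seeing the data. That fit called 483 higher and 410 lower.

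Transcript length, base composition and mean level moved with the digit and are given here because they touch every count below. Genes were ranked and cut into 5 equal groups. In the group with the shortest transcripts the median difference was 0.11, and in that with the longest it was -0.17, so short transcripts read higher and long ones lower in the libraries numbered 0. The slope was steepest with shRNA1 (0.26 to -0.34), and smaller in the control line (0.03 to -0.07) and with shRNA2 (0.04 to -0.11). By GC content the median went from -0.11 in the lowest group to 0.14 in the highest. By mean level over the libraries it went from 0.10 in the lowest group to -0.05 in the highest. The share called lower was 7.34% in the lowest of these groups and 25.3% in the highest, and the share called higher 16.9% and 13.8%. Between the digits 1 and 2 the same medians stayed between -0.01 and 0.01. With the length and GC trends taken out of every library, also an alternative chosen after seeing the data, 1382 genes were higher and 1703 lower. The part of length, GC and mean level in any single gene's difference was not tested.

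**Figure D2:**
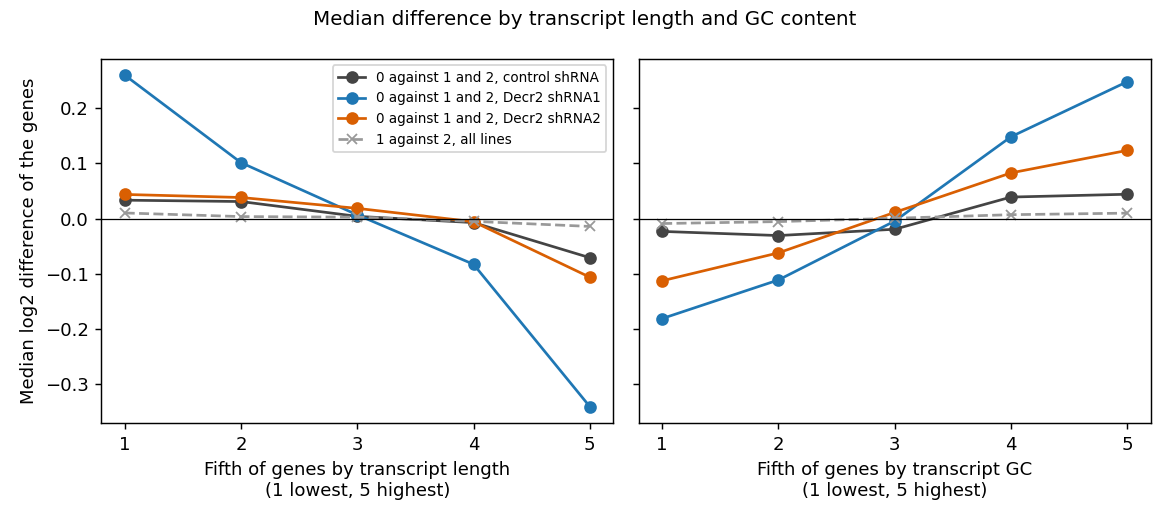
Median log2 difference of the genes in each of 5 equal groups by transcript length (left) and transcript GC content (right). Solid lines are the library numbered 0 against libraries 1 and 2 in each line, and the dashed line is library 1 against library 2. The medians of the shRNA1 line run from 0.26 to -0.34 across length, the widest of the 3 lines.

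Genes of the pigment program were higher in the libraries numbered 0. Of 14 measured genes for melanin synthesis and the core of the melanosome, 11 were higher and none lower, against 15.2% higher among all genes, and their median difference was 0.58 against 0.01. Among 8 transcription factors and receptors of the melanocyte, 4 were higher and none lower. Mitf, the master regulator of the lineage (ENSMUSG00000035158, chromosome 6, 97807052 to 98021349, GRCm38), read 9.55 in the control library numbered 0 against 9.05 and 9.05 in libraries 1 and 2, 9.53 against 8.87 and 8.84 with shRNA1, and 9.65 against 8.80 and 8.82 with shRNA2. The 3 libraries numbered 0 were all above the other 6, with no overlap. The difference of Mitf was 0.67 (SE 0.06, limma adjusted p = 0.00021), a 1.6-fold higher level. Sox10, which acts upstream of Mitf, was higher by 0.39 (SE 0.07, adjusted p = 0.00426). Mc1r, the melanocortin receptor that signals pigment synthesis through cAMP, was higher by 1.10 (SE 0.09) and the receptor Erbb3 by 0.83 (SE 0.11). Pax3 (0.05), Tfap2a (-0.02) and Zeb2 (-0.34) did not pass.

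The promoters of pigment and lysosome genes are shown with the E-box that MITF and TFEB bind, TCANGTG on either strand, in capitals. The sequences are the 250 bases before the RefSeq start in GRCm38.p6, written 5′ to 3′ on the gene's strand. The same letters were found in 12.2% of 32851 mouse promoters of this length. Counted by gene, with a match in any promoter, the letters were in 12.9% of genes in the table with a promoter. The list counts are also by gene. The letters were found in 6 of 9 melanin synthesis and melanosome core genes with a promoter sequence and in 10 of 26 lysosome genes. A match describes the letters and not a bound site.
Tyr, chr7:87493513-87493762, minus strand: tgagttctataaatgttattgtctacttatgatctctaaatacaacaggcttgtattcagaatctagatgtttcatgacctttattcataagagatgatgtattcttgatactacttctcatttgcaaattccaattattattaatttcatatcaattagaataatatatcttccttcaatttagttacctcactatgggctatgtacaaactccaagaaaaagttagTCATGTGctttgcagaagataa
Dct, chr14:118052247-118052496, minus strand: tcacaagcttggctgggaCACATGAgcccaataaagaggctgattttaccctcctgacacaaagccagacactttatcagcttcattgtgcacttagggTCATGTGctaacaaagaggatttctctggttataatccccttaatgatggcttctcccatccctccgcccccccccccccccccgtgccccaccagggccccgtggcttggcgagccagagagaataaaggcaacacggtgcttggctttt
Mlph, chr1:90914850-90915099, plus strand: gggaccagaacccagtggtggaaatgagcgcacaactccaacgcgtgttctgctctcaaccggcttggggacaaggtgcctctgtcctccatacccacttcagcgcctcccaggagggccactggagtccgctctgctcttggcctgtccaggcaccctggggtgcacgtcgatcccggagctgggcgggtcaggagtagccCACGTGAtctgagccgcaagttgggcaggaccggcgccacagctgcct
Ctsd, chr7:142387828-142388077, minus strand: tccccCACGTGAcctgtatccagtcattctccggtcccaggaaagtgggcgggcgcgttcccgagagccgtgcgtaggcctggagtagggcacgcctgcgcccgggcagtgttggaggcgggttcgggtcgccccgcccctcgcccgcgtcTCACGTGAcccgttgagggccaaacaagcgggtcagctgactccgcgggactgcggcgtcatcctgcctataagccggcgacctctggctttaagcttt

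Dct, the tautomerase of the melanin pathway, read 12.12 in the control library numbered 0 against 11.71 and 11.74, 12.36 against 11.24 and 11.29 with shRNA1, and 12.49 against 11.42 and 11.32 with shRNA2. Its libraries numbered 0 were above all 6 others. The difference was 0.87 (SE 0.12, adjusted p = 0.00129). Tyr, the tyrosinase that starts melanin synthesis, was higher by 0.48 (SE 0.07, adjusted p = 0.00156), while its relative Tyrp1 did not pass (0.19, adjusted p = 0.104). Among transporters of the melanosome membrane, Slc24a5 was higher by 0.57, Slc45a2 by 0.77 and Oca2 by 0.53. Trpm1, the ion channel gene whose intron holds the MITF-driven microRNA miR-211, was higher by 1.22 (SE 0.17). Gpnmb (0.84), Bace2 (0.84) and Gpr143 (0.59) were higher too.

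The gene for Pmel, which forms the fibrils on which melanin is laid down, and that for the melanosome protein Mlana behaved differently from Dct. Pmel read 11.74 in the control library numbered 0 against 11.74 and 11.73, 11.79 against 11.07 and 11.03 with shRNA1, and 12.22 against 11.11 and 11.08 with shRNA2. In the control line the library numbered 0 was level with both others, and in the Decr2 lines it lay far above them. Mlana read 8.93 against 8.97 and 8.99 in the control line, 9.03 against 8.4 and 8.44 with shRNA1, and 9.06 against 8.08 and 7.99 with shRNA2. Its control library numbered 0 was thus just below both others. Libraries 1 and 2 of the Decr2 lines were lower than every control library for both genes, and the libraries numbered 0 of those lines were not. The mean differences were 0.63 for Pmel (adjusted p = 0.0164) and 0.53 for Mlana (adjusted p = 0.0259). Whether the difference varied between the 3 lines was tested with an F test of the interaction (limma), which passed for Pmel (adjusted p = 0.00136) and for Mlana (adjusted p = 0.0022). Each line had 1 library numbered 0, and the spread in this test came only from libraries 1 and 2, so a difference between lines and one between single libraries numbered 0 cannot be told apart, here and wherever the interaction is given.

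Many other pigment genes passed this test. The interaction passed in 791 of all genes (7.35%) and in 12 of the 14 melanin synthesis and melanosome core genes, each time with a higher mean difference in the Decr2 lines than in the control line. The median difference of the list was 0.16 in the control line, 0.73 with shRNA1 and 1.05 with shRNA2. The call of several members rested on the Decr2 libraries numbered 0: without the shRNA2 library 0 the adjusted p was 0.0897 for Pmel, 0.147 for Mlana, 0.153 for Gpr143, 0.13 for Oca2 and 0.0522 for Slc45a2, and without the shRNA1 library 0 it was 0.0713 for Pmel, 0.0977 for Mlana, 0.106 for Gpr143 and 0.109 for Oca2. The count of 11 fell to 6 without the shRNA2 library 0, to 8 without the shRNA1 library 0 or the shRNA1 library 2, and to 6 with libraries 1 and 2 averaged. It was 3 against digit 1 alone, 6 against digit 2 alone, 6 without a term for hairpin group and 11 with the length and GC trends removed. Averaging also ended the call of Sox10 (adjusted p = 0.0517).

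Of 22 genes of melanosome biogenesis and transport, 7 were higher, a share of 31.8% against 15.2% of all genes, with a median difference of 0.10. Among them were genes that move finished melanosomes to the cell edge. Mlph, the adaptor that links the organelle to its motor, read 9.35 against 8.56 and 8.58 in the control line, 9.07 against 7.66 and 7.66 with shRNA1, and 9.02 against 6.97 and 7.02 with shRNA2. The 3 libraries numbered 0 were close to each other while the other 6 were widely spread, with no overlap between the groups. Mlph differed by 1.40 (SE 0.17, adjusted p = 0.000704), or 2.65-fold. Its partner on the organelle, the small GTPase Rab27a, differed by 0.99 (SE 0.08, adjusted p = 0.000148), and Rab38, which guides enzymes to the melanosome, by 0.37. In the list 1 gene was lower, Bloc1s5 (-0.20, adjusted p = 0.027), whose call was lost in 6 of 9 fits with 1 library left out (adjusted p up to 0.125). The 7 higher genes became 4 without the shRNA2 library numbered 0, 3 against digit 1 alone and 4 against digit 2 alone.

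**Figure D3:**
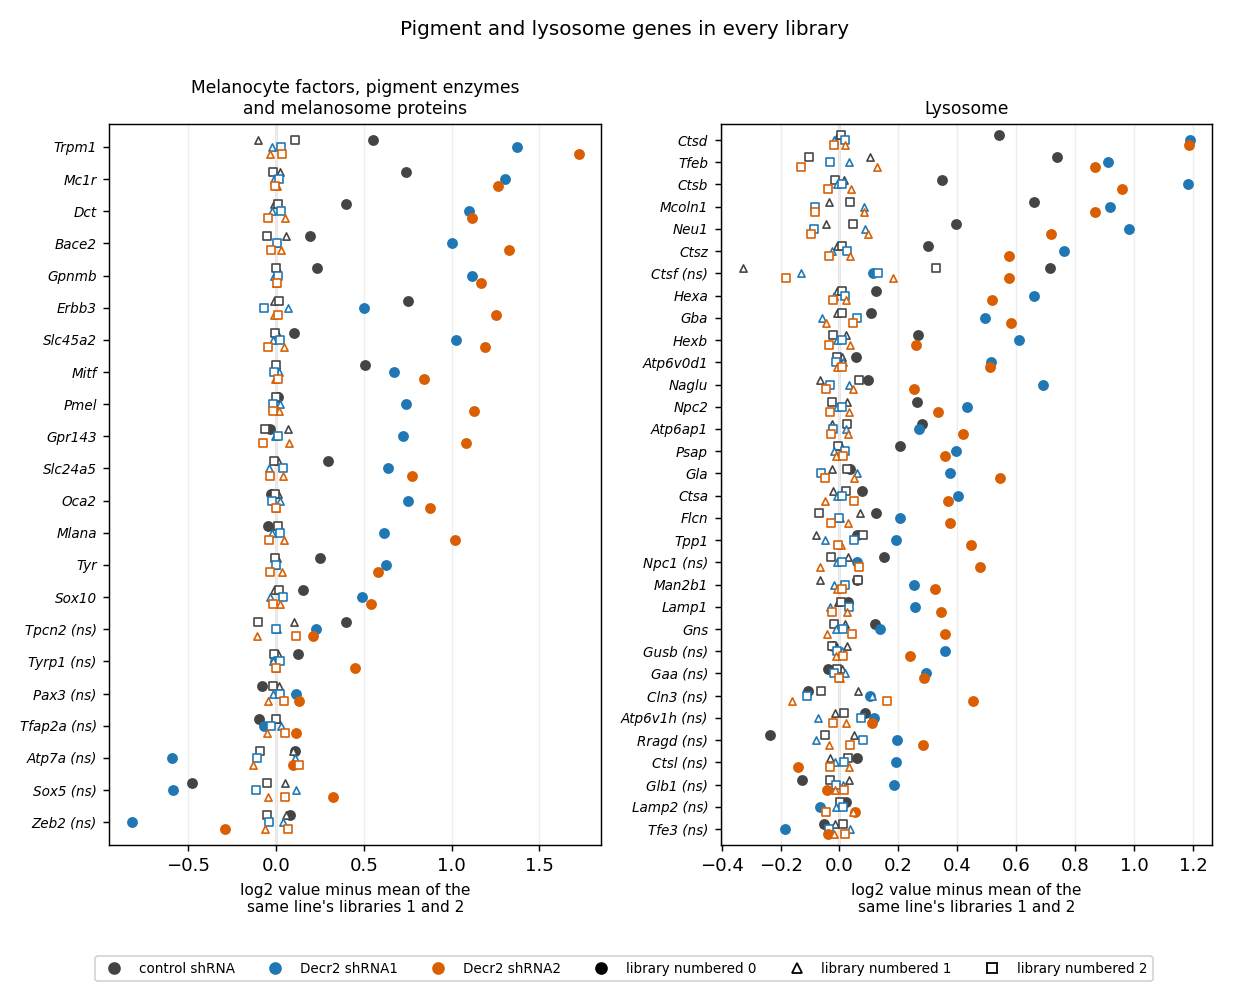
Log2 value of each library minus the mean of libraries 1 and 2 of its own line, for melanocyte and melanosome genes (left) and lysosome genes (right). Filled circles are libraries numbered 0, open triangles and squares are libraries 1 and 2, colour gives the line, and "ns" marks genes that did not pass. The filled circles of the Decr2 lines lie to the right for most genes, and those of the control line are near 0 for Pmel, Mlana, Oca2 and Gpr143.

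The genes of the lysosome were higher as well. Of 32 measured members, 21 were higher and none lower, against 15.2% higher and 14.9% lower among all genes. Their median difference was 0.30. Tfeb, the factor that drives lysosomal genes, read 3.63 against 3.0 and 2.79 in the control line, 4.60 against 3.72 and 3.65 with shRNA1, and 4.58 against 3.84 and 3.58 with shRNA2. In every line the library numbered 0 was the highest, although the control library 0 overlapped libraries 1 and 2 of the Decr2 lines. Tfeb differed by 0.84 (SE 0.09, adjusted p = 0.000476), and the lysosomal calcium channel Mcoln1 by 0.82 (SE 0.09, adjusted p = 0.000511). Neither passed the interaction (adjusted p = 0.814 and 0.609), which does not show that the lines were alike.

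Ctsd, which encodes the protease cathepsin D, read 9.88 against 9.34 and 9.35 in the control line, 10.23 against 9.03 and 9.07 with shRNA1, and 10.02 against 8.85 and 8.81 with shRNA2. Its 3 libraries numbered 0 were above all others, by 0.97 (SE 0.11, adjusted p = 0.0005). The protease genes Ctsb (0.83) and Ctsz (0.55) and the sialidase Neu1 (0.70) were higher, while the membrane protein gene Lamp2 was not (0.00, adjusted p = 0.956). The list's median was 0.10 in the control line, 0.33 with shRNA1 and 0.37 with shRNA2. Of its 32 members 6 passed the interaction, against 7.35% of all genes. The lysosome count fell from 21 to 11 without the shRNA2 library numbered 0, to 8 with libraries 1 and 2 averaged and to 16 with the length and GC trends removed. It was 6 against digit 1 alone, 8 against digit 2 alone and 11 without a term for hairpin group.

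The genes of glycolysis were higher in part. Of 25 genes, 12 were higher and none lower, against 15.2% higher and 14.9% lower among all genes. The median difference was 0.16, and the called members were mostly of small size. Aldoc, the brain type aldolase, was the exception: it read 3.75 against 2.15 and 3.11 in the control line, 5.35 against 3.96 and 4.15 with shRNA1, and 4.66 against 2.89 and 3.23 with shRNA2. Each library numbered 0 was above both others of its line, although libraries 1 and 2 of the control line were themselves far apart. Aldoc differed by 1.34 (SE 0.19, adjusted p = 0.00154). The hexokinase Hk1 differed by 0.62 (SE 0.06, adjusted p = 0.000328), Gapdh by 0.31 (adjusted p = 0.01) and the pyruvate kinase Pkm by 0.36 (adjusted p = 0.0061).

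Several glycolytic genes well known as targets of hypoxia-inducible factor did not pass, while other targets in the list, such as Pkm and Gapdh, were called higher. Hk2 differed by -0.01, the lactate dehydrogenase Ldha by 0.02, the phosphoglycerate kinase Pgk1 by 0.09 and the glucose transporter Slc2a1 by 0.12. The 24 other targets of that factor had a median of 0.12. Among them 6 were higher and none lower, against 15.2% higher and 14.9% lower among all genes. The 6 higher targets included the mitophagy receptor Bnip3 (0.62, SE 0.10), the mitochondrial protein Higd1a (0.45) and the repressor Bhlhe40 (0.86, SE 0.10). Bnip3 had another pattern by line than the pigment genes: its difference was 0.85 in the control line, 0.27 with shRNA1 and 0.75 with shRNA2 (interaction adjusted p = 0.0279). Several uncalled targets also had a positive difference in the control line and a negative one with shRNA1, so the list's median hides opposite directions. Higd1a, by contrast, differed by 0.44, 0.47 and 0.45 in the same order of lines. The glycolysis count of 12 fell to 7 without the shRNA2 library numbered 0, to 4 with libraries 1 and 2 averaged and to 8 with the length and GC trends removed. It was 2 against digit 1 alone, 3 against digit 2 alone and 1 without a term for hairpin group. The 6 other targets became 3 in each of these 3 fits, with averaging and without the shRNA2 library numbered 0, and 10 without the shRNA1 library numbered 0. With the length and GC trends removed Pkm did not pass (adjusted p = 0.0525), and averaging ended the call of Pkm (0.0799) and Gapdh (0.102).

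The integrated stress response was lower in the libraries numbered 0. Of 33 measured genes, 26 were lower and none higher, against 14.9% lower among all genes, and the median difference was -0.60. The promoters of Asns and Slc7a11 are shown with the composite element bound by ATF4 and its partners, TGATGNAA on either strand, in capitals. It was found in 3.45% of the 32851 promoters. Counted by gene, with a match in any promoter, it was in 2.24% of genes in the table with a promoter and in 7 of 28 genes of the list. The windows are again the 250 bases before the RefSeq start in GRCm38.p6.
Asns, chr6:7693210-7693459, minus strand: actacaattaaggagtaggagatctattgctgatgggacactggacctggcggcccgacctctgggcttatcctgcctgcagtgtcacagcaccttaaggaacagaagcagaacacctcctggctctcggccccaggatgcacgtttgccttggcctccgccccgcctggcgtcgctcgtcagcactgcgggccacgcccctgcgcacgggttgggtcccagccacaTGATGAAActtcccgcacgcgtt
Slc7a11, chr3:50443614-50443863, minus strand: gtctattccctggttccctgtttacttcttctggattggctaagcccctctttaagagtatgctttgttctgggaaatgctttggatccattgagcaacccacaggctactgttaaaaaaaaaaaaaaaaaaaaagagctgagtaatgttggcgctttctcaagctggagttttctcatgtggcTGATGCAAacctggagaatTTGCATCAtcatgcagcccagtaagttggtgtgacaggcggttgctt

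Asns, the asparagine synthetase (ENSMUSG00000029752, chromosome 6, 7675169 to 7693254), read 6.92 against 7.75 and 7.71 in the control line, 7.95 against 9.08 and 9.07 with shRNA1, and 8.16 against 9.32 and 9.23 with shRNA2. In every line the library numbered 0 was the lowest by a wide margin, and the lines themselves stood at different levels, with the control line lowest. The difference was -1.02 (SE 0.06, adjusted p = 4.7e-05), which is 0.495 of the level in the other libraries. Slc7a11, the cystine transporter that feeds glutathione synthesis, read 2.74 against 3.79 and 3.86 in the control line, 4.06 against 6.41 and 6.35 with shRNA1, and 4.76 against 6.12 and 6.24 with shRNA2. It showed the largest difference of the list at -1.61 (SE 0.18, adjusted p = 0.000514).

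The transcription factors of the response were lower too. Atf4 read 7.58 against 7.94 and 7.96 in the control line, 8.38 against 9.13 and 9.20 with shRNA1, and 8.76 against 9.24 and 9.18 with shRNA2. The Decr2 libraries numbered 0 thus lay between the control line and libraries 1 and 2 of their own lines. Atf4 differed by -0.53 (SE 0.07, adjusted p = 0.00124), Atf3 by -1.24 (SE 0.16) and Atf5 by -1.03 (SE 0.19). Atf3 lay in the lowest group by mean level, reading at most 3.17. Ddit3, the factor tied to cell death in this response, did not pass (0.02, 95% interval -0.17 to 0.21).

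Enzymes that make serine, glycine and folate intermediates were lower, with differences of -0.49 for Phgdh, -0.63 for Psat1, -0.77 for Psph, -0.62 for Shmt2 and -0.73 for Mthfd2. The neutral amino acid transporter Slc1a4 differed by -0.93 and Chac1, which breaks down glutathione, by -0.84. The pseudokinase Trib3 differed by -0.58. The stress-induced nuclear protein gene Nupr1 (-0.21) and Ddit4 (0.02) did not pass.

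By line, the median of the stress list was -0.24 in the control line, -0.84 with shRNA1 and -0.50 with shRNA2. Of its 33 genes 20 passed the interaction, against 7.35% of all genes. Atf5 was the clearest case, with a difference of -0.24 in the control line against -1.39 with shRNA1 and -1.47 with shRNA2 (interaction adjusted p = 0.00198). Nupr1 went opposite ways: it read 1.87 against 1.38 and 1.38 in the control line, 4.57 against 5.18 and 5.24 with shRNA1, and 4.76 against 5.23 and 5.26 with shRNA2 (interaction adjusted p = 0.0117). The count of 26 lower genes was 22 to 29 with any 1 library left out, 19 with libraries 1 and 2 averaged and 26 with the length and GC trends removed. It was 11 against digit 1 alone and 4 without a term for hairpin group. Averaging ended the call of Trib3 (adjusted p = 0.0689).

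Targets of YAP and SRF were lower for the most part. Of 20 measured genes, 13 were lower and 2 higher, against 14.9% lower and 15.2% higher among all genes. Their median difference was -0.56. The promoter of Ccn1 is shown with the TEAD motif CATTCC, and those of Cnn2 and Vcl with the SRF CArG box, in capitals, each searched on both strands of the same 250 bases. The TEAD letters were found in 12.6% of the 32851 promoters and the CArG box in 1.47%. Counted by gene, the TEAD letters were in 12.2% of genes in the table with a promoter and in 9 of 15 genes of the list. The CArG box was in 1.27% of the former and in 3 of the 15.
Ccn1, chr3:145649986-145650235, minus strand: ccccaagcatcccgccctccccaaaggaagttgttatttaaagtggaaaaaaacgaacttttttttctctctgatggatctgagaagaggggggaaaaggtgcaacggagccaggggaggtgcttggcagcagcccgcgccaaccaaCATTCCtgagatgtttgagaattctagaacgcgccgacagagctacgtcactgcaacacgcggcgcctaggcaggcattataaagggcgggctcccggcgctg
Cnn2, chr10:79988350-79988599, plus strand: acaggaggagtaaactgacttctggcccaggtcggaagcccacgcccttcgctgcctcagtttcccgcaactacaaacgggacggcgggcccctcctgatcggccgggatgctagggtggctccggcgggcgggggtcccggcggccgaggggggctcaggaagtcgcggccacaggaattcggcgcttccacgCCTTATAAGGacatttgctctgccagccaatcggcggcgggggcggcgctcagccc
Vcl, chr14:20929148-20929397, plus strand: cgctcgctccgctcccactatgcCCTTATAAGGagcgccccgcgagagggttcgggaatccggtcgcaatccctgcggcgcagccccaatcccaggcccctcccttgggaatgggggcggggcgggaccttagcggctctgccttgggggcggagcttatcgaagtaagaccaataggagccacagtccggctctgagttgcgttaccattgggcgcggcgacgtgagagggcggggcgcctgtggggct

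Ccn1, a secreted matrix protein and a standard readout of YAP, read 5.57 against 6.67 and 6.59 in the control line, 5.34 against 6.91 and 6.93 with shRNA1, and 4.93 against 6.67 and 6.71 with shRNA2. All 3 libraries numbered 0 were far below all 6 others. Ccn1 differed by -1.46 (SE 0.11, adjusted p = 8.72e-05), or 0.363 of the level in the other libraries. The angiomotin gene Amotl2 differed by -0.98 and the factor Tead1 by -0.61.

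Cnn2, a calponin that binds actin, read 6.42 against 7.45 and 7.47 in the control line, 6.45 against 7.72 and 7.69 with shRNA1, and 6.16 against 7.56 and 7.48 with shRNA2. Again the groups did not overlap, and Cnn2 differed by -1.22 (SE 0.06, adjusted p = 4.03e-05). The cytoskeletal genes Vcl (-0.92), Tpm1 (-0.77), Actb (-0.68), Actg1 (-0.64) and Flna (-0.51) were lower. Srf itself (-0.51, SE 0.07) and the immediate early factor Egr1 (-0.83, SE 0.15) were lower too. Actb and Actg1 have near-identical coding sequences, so the split of reads between them is uncertain.

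Not all targets of YAP followed. F3, the tissue factor gene, was higher by 0.23 (adjusted p = 0.0133). Ccn2, the other common readout of YAP, did not pass (0.17, 95% interval -0.21 to 0.55). The 13 lower genes became 13 to 15 with any 1 library left out and 11 with libraries 1 and 2 averaged, which ended the call of Tead1 (adjusted p = 0.0539) and F3 (0.123). The counts of this list against digit 1 or digit 2 alone and without a term for hairpin group are not given here. Its steadiness is therefore not comparable with that of the lists above.

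**Figure D4:**
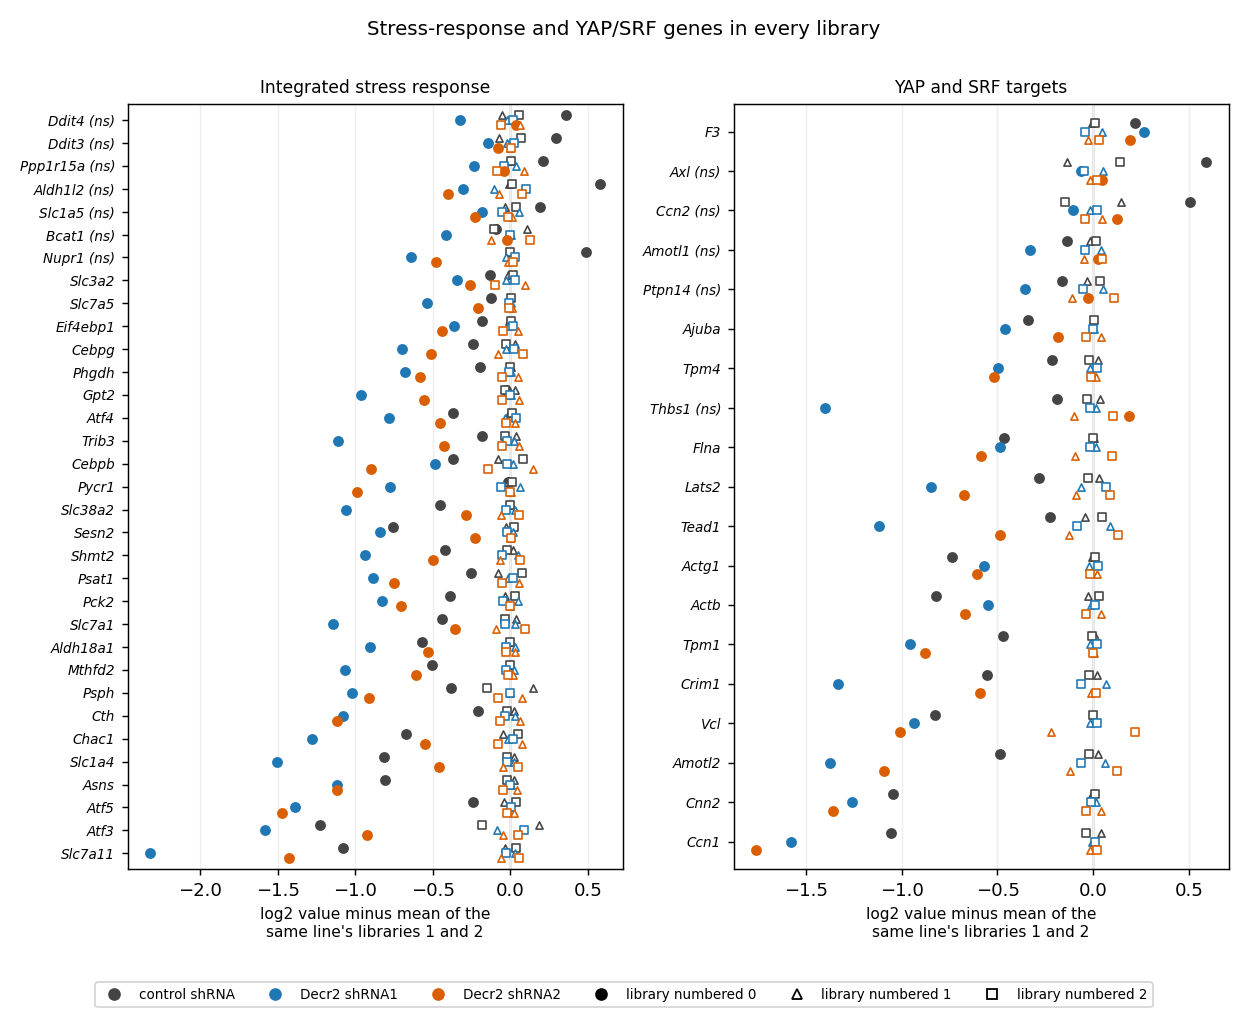
Log2 value of each library minus the mean of libraries 1 and 2 of its own line, for the integrated stress response (left) and targets of YAP and SRF (right). Filled circles are libraries numbered 0, open triangles and squares are libraries 1 and 2, colour gives the line, and "ns" marks genes that did not pass. Most filled circles lie to the left and the control line's lie nearer to 0 in the stress panel. In the right panel 1 measured target, called higher, is not plotted.

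Beyond these lists, the naming rule took the genes of largest difference among those above the median level whose library 0 lay outside both others in every line. The highest was Lgals3, which encodes the sugar-binding protein galectin-3. It read 6.57 against 6.04 and 5.99 in the control line, 6.77 against 4.68 and 4.81 with shRNA1, and 6.26 against 4.56 and 4.45 with shRNA2. The libraries numbered 0 were alike in the 3 lines, while libraries 1 and 2 of the Decr2 lines were far below those of the control line. Lgals3 differed by 1.45 (SE 0.21, adjusted p = 0.00182). After Mlph (1.40) came Itgb3, the integrin beta 3 chain (1.23), Trpm1 (1.22), Mc1r (1.10) and the metallothionein Mt1 (1.09). The rest were Tmem51 (1.08), the magnesium transporter family member Nipal3 (1.07), Cdk2 (1.06), the sialyltransferase St3gal1 (1.06), the tetraspanin Tspan10 (1.03), Tmc6 (1.03), the clock repressor Bhlhe41 (0.99), Rab27a (0.99) and the connexin Gjb2 (0.99).

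Cdk2 needs a caution. On chromosome 10 of GRCm38 the kinase gene spans 128697939 to 128705031 (minus strand) and Pmel spans 128704195 to 128720238 (plus strand), so the pair overlap. A strand setting is not given in the sources used here, and reads from the overlap cannot be told apart. Cdk2 read 8.81 against 8.14 and 8.23 in the control line, 9.33 against 8.16 and 8.09 with shRNA1, and 9.23 against 7.87 and 7.89 with shRNA2. Unlike Pmel, it was higher in the library numbered 0 of the control line too.

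The lowest by the same rule, after Ccn1 (-1.46), was Akap6, a scaffold for protein kinase A (-1.34, SE 0.17). It read 5.07 against 5.76 and 5.75 in the control line, 4.67 against 6.54 and 6.43 with shRNA1, and 5.33 against 6.75 and 6.99 with shRNA2. The 3 libraries numbered 0 were below all 6 others. Then came Cnn2 (-1.22), the chromatin factor Arid5b (-1.17), the nuclear receptor Nr2f2 (-1.13, SE 0.06), the endocytic adaptor Dab2 (-1.11) and the scaffold Akap12 (-1.06). Atf5 (-1.03), Tsc22d2 (-1.03), Asns (-1.02), the focal adhesion gene Lpp (-1.0), the intermediate filament Nes (-0.99), Amotl2 (-0.98), the unconventional myosin Myo9a (-0.95) and Slc1a4 (-0.93) completed the 15.

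Not every gene followed the pattern of a shared difference, and the 6 genes of lowest interaction p above the median level were Cp, Ptgds, Prss23, Pmel, Mlph and Gpnmb. Cp, the copper carrier ceruloplasmin, read 7.78 against 6.52 and 6.49 in the control line, 7.66 against 8.06 and 8.10 with shRNA1, and 7.19 against 7.32 and 7.36 with shRNA2. The library numbered 0 was far above the others in the control line and below them in both Decr2 lines (interaction adjusted p = 0.000506). Ptgds, a prostaglandin synthase, went the other way, with a difference of -0.43 in the control line against 1.20 with shRNA1 and 1.02 with shRNA2 (interaction adjusted p = 0.000506). The protease Prss23 had differences of 0.35, -1.22 and -0.95 in the same order. Among the 791 genes that passed, the mean difference of the Decr2 lines went further than that of the control line, in the gene's overall direction, in 688. The overall direction is itself set mostly by the Decr2 lines, so a majority of this kind is partly built in.

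Further lists held called members as well, beside 15.2% higher and 14.9% lower among all genes. Of 24 genes of cholesterol synthesis 11 were higher, among them Fdps (0.40) and Insig1 (0.41), and 1 was lower. The 11 became 5 with libraries 1 and 2 averaged, 0 against digit 1 alone, 6 against digit 2 alone and 3 without a term for hairpin group. Of 26 interferon-stimulated genes 8 were higher and 1 lower, led by Xaf1 (1.40, SE 0.21) and Irf9, a subunit of the interferon response factor (1.12, SE 0.17). Xaf1 and Irf9 lay in the lowest of the 5 groups by mean level, reading at most 3.14 and 2.56. The 8 higher genes became 4 with averaging or with the lowest 25% of genes removed, 13 without the intensity trend, 3 against either digit alone and 1 without a term for hairpin group. None of the interferon list passed the interaction, against 7.35% of all genes. Of 12 genes of MHC class I presentation 5 were higher, including the peptide-loading protein Tapbp (0.57), and none lower. The chemokine Ccl5 was higher by 0.97 (adjusted p = 0.00578), a call lost with libraries 1 and 2 averaged (0.0564). Ccl5 read at most 2.31 and lay in the lowest group by mean level too.

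Among all genes 15.2% were higher and 14.9% lower, the shares to set beside the counts here. Chaperones of the endoplasmic reticulum were called higher in 7 of 24 genes, such as Xbp1 (0.33) and Manf (0.35), and lower in none. The central chaperone Hspa5 did not pass (0.14). Cytosolic heat shock genes were lower in 7 of 19, including Hsp90aa1 (-0.42) and the mitochondrial Hspd1 (-0.39), and higher in 2, of which Cryab was 1 (0.43). Of 32 S phase genes 10 were lower, for example the replicative helicase subunit Mcm7 (-0.28) and the polymerase Pola1 (-0.50), and 2 were higher. With the length and GC trends removed the 10 became 18, and with libraries 1 and 2 averaged or without a term for hairpin group 1 was lower. It was 0 against digit 1 alone and 6 without the control library 0 or 2 or the shRNA1 library 2, and 5 without the shRNA2 library 0. Of 31 genes of G2 and M phase 4 were called in each direction, no more than the shares of all genes. Among 27 genes of ribosome biogenesis 9 were lower, such as Utp20 (-0.48), and 1 was higher.

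The list of oxidative phosphorylation had its highest median in the shRNA1 line. Of 73 nuclear subunits 10 were higher, a share of 13.7%, close to that of all genes, with Atp5g1 the largest at 0.53. The median was 0.13 over the 3 lines, 0.43 with shRNA1, -0.03 in the control line and 0.01 with shRNA2. Without the shRNA1 library numbered 0, 3 were higher, and without the control library numbered 0, 21 were. These are short transcripts, with a median length of 1005 bases against 3509 over all genes, and the median over the 3 lines was 0.04 in place of 0.13 with the length and GC trends removed. Against digit 1 alone 0 were higher, and with averaging 1. Of 81 cytosolic ribosomal proteins 1 was higher and 5 were lower, and none of the 13 mitochondrially encoded genes passed.

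Further lists held members that differed strongly, beside 15.2% higher and 14.9% lower among all genes. In a list on quiescence and FOXO factors 4 of 16 genes were lower and none higher, and the repressor Bcl6 read 1.07 against 2.20 and 2.51 in the control line, 1.44 against 3.45 and 3.48 with shRNA1, and 1.58 against 2.97 and 3.15 with shRNA2. Its groups did not overlap, and the difference was -1.60 (SE 0.15, adjusted p = 0.00031). Of 25 genes of the oxidative stress response 4 were higher, near the share of all genes, and 5 lower. The higher genes were led by the glutathione transferase Gsta4 (1.28) and the lower by Slc7a11. Gsta4 lay in the lowest group by mean level, reading at most 3.03. Of 18 p53 targets 7 were lower, led by the cell death gene Bbc3 (-0.83), and 2 higher. The matrix and invasion genes split, with 8 of 28 higher, among them osteopontin, Spp1 (1.37), and 10 lower, among them the cadherin Cdh2 (-0.81). Of 13 clock genes 4 were higher and 2 lower, and the repressor Nr1d1 (0.51, adjusted p = 0.00826) lost its call without the shRNA2 library numbered 0 (0.0511).

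**Figure D5:**
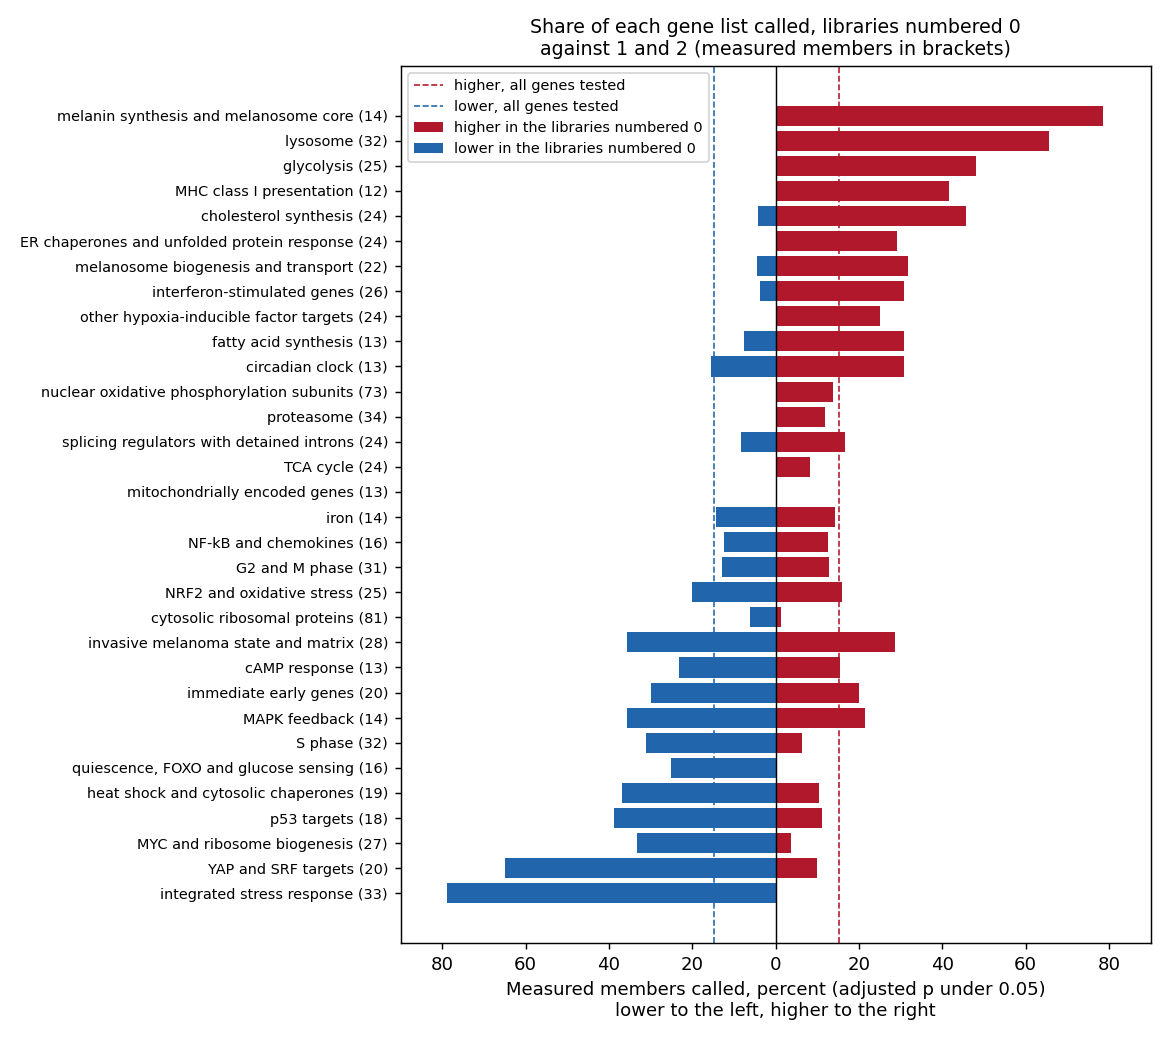
Share of the measured members of each gene list with at least 10 measured genes that were called higher (red, to the right) or lower (blue, to the left) in the libraries numbered 0. Dashed lines give the shares of all genes, 15.2% higher and 14.9% lower. The pigment core (78.6% higher) and the integrated stress response (78.8% lower) lie at the ends of the order.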

How the data were processed

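The authors deposited 1 table of log2 values, per gene and library, with their own fold changes, scores and p-values for each hairpin against control. Per the submitters' processing notes, kallisto, FastQC and limma were used. Their versions, the build, annotation, strand and filters were not given in the sources used here. Raised to the power of 2, a library's values summed to between 969465 and 1045849. The depth is unknown and whole reads were not recovered, so precision comes from the spread between libraries. The authors' headings tied columns to hairpins: 99.95% and 99.7% of genes matched the authors' log2 fold changes within 0.05, against 26.6% and 26.3% with the hairpins exchanged. An exchange would leave the comparison of digits as it is. Columns without a known sample numbered 0.

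Gene IDs matched symbols for 10759 of 10762 genes, and 6 symbols were held by more than 1 ID. Coordinates, lengths and GC content came from GENCODE on GRCm38, and promoters from RefSeq on GRCm38.p6. The log2 values were fitted as deposited with limma 3.58.1 in R 4.3.3, with terms for hairpin group and digit 0, an intensity trend and 5 residual (4.59 prior) degrees of freedom. The interaction had 3. Tables and figures were made in Python 3.11.15. The code was tested on simulated data.

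The digit comparison and the gene lists were chosen with earlier results of these data known. Lists are described by counts and medians without a test, and some of their members are counted but not reported here by name. Named genes were the 15 highest and 15 lowest among called genes with plain symbols, a mean above the median gene (5.35) and library 0 outside both others on the same side in every line (1729 genes), up to 5 called members per list and direction, other list members with their values, and the 6 of lowest interaction p. Alternatives covered centring, quantile normalization, a filter on low genes, the variance prior, the hairpin term, each library left out, the replicate block and, added after seeing the data, averaging, length and GC, and leaving out the control line.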

Additional observations from a re-analysis of the deposited data

Results flagged for a closer look

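For 58 of the genes named above, the difference between the library numbered 0 and libraries 1 and 2 passed a test of variation between the 3 lines (F test of the interaction in limma, adjusted p under 0.05). Each line had 1 library numbered 0, so lines and single libraries cannot be told apart. The values here are the mean difference in the Decr2 lines minus that in the control line, on the log2 scale. The interaction had 3 residual degrees of freedom and its count depended strongly on single libraries.

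Among pigment enzymes and melanosome proteins the excess in the Decr2 lines was 1.01 for Slc45a2, 1.0 for Trpm1, 0.97 for Bace2, 0.94 for Gpr143, 0.92 for Pmel, 0.91 for Gpnmb, 0.86 for Mlana and 0.85 for Oca2. It was smaller for Dct (0.71), Slc24a5 (0.41), Tyr (0.35) and Tyrp1 (0.10). For Tyrp1 the Decr2 lines lay on both sides of the control line (0.12), with -0.01 for shRNA1 and 0.45 for shRNA2. Of the transport genes, Mlph had an excess of 0.94 and Rab27a of 0.46. Among regulators and receptors it was 0.54 for Mc1r, 0.36 for Sox10, 0.13 for Erbb3 and -0.64 for Zeb2, a repressor that did not pass by digit. Erbb3 differed by 0.75 in the control line, 0.50 with shRNA1 and 1.25 with shRNA2, so its Decr2 lines disagreed.

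The lysosomal proteases had an excess of 0.72 (Ctsb), 0.65 (Ctsd) and 0.37 (Ctsz). Of the glycolytic genes, Pkm had 0.33 and Gapdh 0.27. The targets of hypoxia-inducible factor had a negative value, -0.34 for Bnip3 and -0.03 for Bhlhe40, where the Decr2 lines differed from each other.

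In the integrated stress response the value was negative. It was -1.19 for Atf5, -1.05 for Nupr1, -0.80 for Slc7a11, -0.58 for Trib3, -0.57 for Psat1, -0.50 for Ddit4 and -0.44 for Phgdh. It was smaller for Mthfd2 (-0.33), Shmt2 (-0.30), Atf4 (-0.25), Chac1 (-0.24) and Slc1a4 (-0.17). For Chac1 and Slc1a4 the Decr2 lines lay on both sides of the control line. Chac1 differed by -0.67 in the control line, -1.28 with shRNA1 and -0.55 with shRNA2, and Slc1a4 by -0.82, -1.51 and -0.46. Targets of YAP and SRF had -0.75 (Amotl2), -0.61 (Ccn1), -0.57 (Tead1) and -0.45 (Tpm1).

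Of the other genes with the highest differences by digit, Lgals3 had an excess of 1.33, Bhlhe41 of 1.05, Tspan10 of 0.89, Tmc6 of 0.80, Nipal3 of 0.77, Mt1 of 0.74, Tmem51 of 0.72, Cdk2 of 0.66 and Itgb3 of 0.55. Of those with the lowest, Akap6 had -0.99, Arid5b -0.70 and Dab2 -0.49. The matrix and adhesion genes Spp1 and Cdh2 had 0.91 and -0.46. The value was 1.54 for Ptgds, -1.56 for Cp and -1.43 for Prss23, the 3 genes of lowest interaction p.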

How the results depend on the processing

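The counts of 1640 higher and 1599 lower genes stayed within 1.5 times under centring, quantile normalization, removal of the lowest 25% of genes, the variance priors, removal of length and GC trends and without the 3 control libraries. Without a term for hairpin group 424 were higher and 361 lower. Against digit 1 alone the counts were 223 and 155, and against digit 2 alone 404 and 391. Averaging libraries 1 and 2 gave 483 and 410, and a minimum of 1 on the log2 scale left 81 and 55. With 1 library left out, 990 to 1857 genes were higher and 911 to 1928 lower, the fewest without the shRNA1 library numbered 0 and the most without the control library numbered 0. Without the shRNA2 library numbered 0 the counts were 1013 and 1055, and without the libraries numbered 2 of shRNA1 and shRNA2 the lower genes numbered 1036 and 1060. The replicate block, here a term for each digit, gave 1304 higher and 1231 lower. Digits are what is compared, so they pair no groups.

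Genes whose difference varied between lines numbered 791, or 88 without the intensity trend and 568 with length and GC trends removed. With 1 library numbered 1 or 2 left out they numbered 177 (without control library 1) to 1526 (without shRNA2 library 2), with 189 without control library 2 and 294 without shRNA1 library 1. Of 102 called genes in the text, 92 were called in all 9 fits with 1 library left out. Of these 102 calls, 43 were lost without a term for hairpin group, 38 against digit 1 alone, 19 against digit 2 alone and 16 with averaging. No called gene of the text changed sign in these settings. Uncalled genes near 0 did in some, such as Ddit4 (-0.14 without the control library numbered 0), and 1 uncalled gene, Cp, passed with the opposite sign: it was -0.29 without the control library numbered 0 or without the 3 control libraries, and its range with 1 library left out was -0.29 to 0.56. Depth could not be set against any of these values.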

Other observations

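Further gene lists had the counts given here, beside 15.2% higher and 14.9% lower among all genes. Of 13 genes of fatty acid synthesis 4 were higher and 1 lower, of 24 genes of the TCA cycle 2 were higher and none lower, and of 34 proteasome genes 4 were higher and none lower. Of 14 iron genes 2 were called in each direction, as were 2 of 16 genes of NF-kB signalling and chemokines. Immediate early genes were called higher in 4 and lower in 6 of 20, genes of MAPK feedback in 3 and 5 of 14, and genes of the cAMP response in 2 and 3 of 13. Of 24 splicing regulators with introns retained in the nucleus 4 were higher and 2 lower, and of 5 replication-dependent histone genes 2 were higher. The 4 cold-inducible RNA-binding genes did not pass. Long noncoding RNAs of the list were not analysed here.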
